A study of Mus musculus with 9 samples.

Results

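MOVAS cells, an immortalised line of mouse aortic smooth muscle, were compared after 24 h with DON plus glutamate and without either compound, and the question was which expression changes were still present when glutamate had been supplied along with the inhibitor. The comparison took 6 of the 9 libraries of the series: 3 of untreated control cells and 3 of cells given 50 mM DON and 2 mM glutamate. The other 3 libraries, from cells given 50 mM DON alone, entered the same model. Their values are shown beside some of the results, not all. All groups were the same line (C57BL/6 by its genotype label) in serum-containing DMEM with geneticin at subconfluence, and doses are as labelled. The supplier number printed beside the glutamate may belong to a stabilised glutamine dipeptide, so glutamate here means the supplement so labelled. RNA was sequenced and counted per gene in a table of 53379 rows.

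A library held 1132822 to 1342286 counts, the lowest being DON plus glutamate replicate 3. Rows that lie across from a coding exon on the other strand took 88.0% ± 0.40 of the counts (SD, n = 9 libraries). A row facing the exons of 1 protein-coding gene was therefore read as that gene, which gave 4115 genes. Of these, 2444 had enough counts to test. A value covers only the stretch of the gene that overlaps the row, so it is named by the gene with the deposited row beside it. Levels are in CPM, counts scaled by library size with a TMM composition factor. Library size is the counts of all tested genes for a gene, and of all tested rows for a row under its own name. The scales of genes and rows therefore differ, and levels are compared between groups within a gene or row, never between them. Nothing in the labels ties the 3 replicates to separate cultures, so p-values may measure technical spread only. A bulk library cannot tell fewer cells of a type from less RNA per cell.

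Glutamine gives its side-chain nitrogen to the synthesis of nucleotides, amino sugars and asparagine, and its carbon, by way of glutamate, to the citric acid cycle. DON is a glutamine analogue that reacts irreversibly with many enzymes that use glutamine, the amidotransferases among them. Cells short of an amino acid accumulate uncharged tRNA, the kinase Gcn2 phosphorylates the initiation factor eIF2, and the transcription factor Atf4 is translated and induces genes of amino acid synthesis, uptake and tRNA charging. Sterol synthesis genes are controlled separately, by the membrane-bound SREBP factors, which are released when cell cholesterol is low.

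With DON plus glutamate, 131 of the 2444 genes changed against control (5.36%; edgeR's quasi-likelihood test, Benjamini-Hochberg adjusted p under 0.05). Of these, 64 were higher (2.62%) and 67 lower (2.74%). A call against control does not show that DON alone made the same change: in Hspa1a, for one, the control and DON libraries overlapped. How many of the 131 also changed with DON alone is not given here. The rises reached further than the falls: 18 genes rose and 2 fell by at least 2-fold, and 31 rose and 11 fell by at least 1.5-fold. The median size among the 131 was 0.46 on the log2 scale, within a range of 0.22 to 2.95. Over all 2444 genes the median log2 change was 0.00, and the 5th to 95th percentiles ran from -0.39 to 0.45. In each of the 131 the 3 libraries of one group lay entirely above or below those of the other, which was the case for 584 of all genes tested (23.9%). With library totals in place of TMM composition factors the count was 133, and the split became 82 higher and 51 lower. The count was 73 without DON plus glutamate replicate 2, 77 without control replicate 3 and 83 without control replicate 2, and 50 of the 131 genes were called under every alternative that gave a value.

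**Figure D1:**
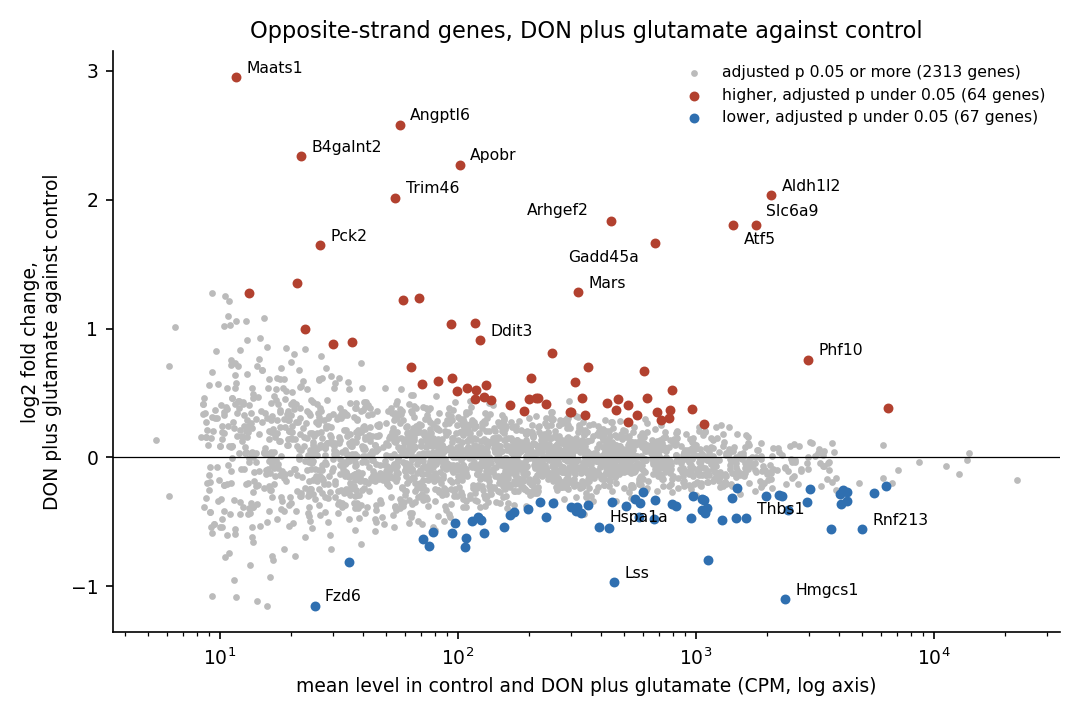
Log2 fold change of DON plus glutamate against control (vertical axis) against the mean level of both groups in CPM (horizontal log axis) for 2444 opposite-strand genes. Red points are the 64 higher and blue points the 67 lower genes at adjusted p under 0.05, and grey points are all others. Aldh1l2, Slc6a9 and Atf5 stand above 1.5 at high levels, and Hmgcs1 is the high-level gene that lies below -1.

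Set directly against DON alone, the cells with glutamate differed in 1 of 2444 genes (0.0409%), Hspa1a, with 174 genes at an unadjusted p under 0.05. By the DESeq2 Wald test and in the fit with the replicate block the count was also 1, while leaving out DON plus glutamate replicate 1 or 2 gave 0, leaving out DON replicate 2 gave 2, leaving out DON plus glutamate replicate 3 gave 3, and testing with no filter on low counts gave 4. Among the 131 genes changed against control, the median absolute difference from DON was 0.09 on the log2 scale, and the median standard error of that difference was 0.10. For 16 of them the unadjusted 95% interval of the difference lay to one side of 0. The difference from DON and the difference from control share the DON plus glutamate libraries, so each contrast is given with its own value. A difference from DON that did not pass does not show that glutamate had no effect, and its interval gives the size that these libraries could still hold.

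The amino acid starvation response had the highest median of the gene lists. Of 36 genes listed, 7 were measured, 5 rose and 0 fell, where 2.62% of all genes tested rose. All lists were chosen with earlier results of these data known, so the share of any list beside that of all genes is description only. The list median was 1.65 on the log2 scale against 0.00 over all genes. Aldh1l2, the mitochondrial enzyme that turns formyl-tetrahydrofolate into tetrahydrofolate, stood at 754, 823 and 860.2 CPM in the controls, 3469.6, 3813 and 3427 CPM with DON and 3336, 3329 and 3344 CPM with DON plus glutamate. The treated libraries all lay far above the controls, and every library with glutamate was slightly below every DON library. The rise was 4.11-fold (log2 2.04 ± 0.08, SE; adjusted p = 5.29e-19), beside 2.14 ± 0.08 for DON against control. The direct difference from DON was -0.10 ± 0.07, with a 95% interval of -0.24 to 0.04. Aldh1l2 lies on chromosome 10 at 83487450 to 83534140, minus strand (mm10), and its row, D10Wsu102e, covers 1056 bp of its exons.

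Slc6a9, the glycine transporter GlyT1, read 784, 839 and 766 CPM in control, 2635, 2791 and 2833 CPM with DON and 2864, 2756 and 2743 CPM with DON plus glutamate. Glutamate and DON-only libraries overlapped, and all 6 were above every control. It rose 3.50-fold (log2 1.81 ± 0.07; adjusted p = 3.11e-18; row Ccdc24), with a difference from DON of 0.02 ± 0.07 and an interval of -0.12 to 0.16. Atf5, a transcription factor of the same family as Atf4 and one of its targets, read 635, 689 and 595 CPM in control, 2384, 1860.2 and 2063 CPM with DON and 2352, 2608 and 1735 CPM with DON plus glutamate. The glutamate libraries of Atf5 were uneven, replicate 3 being the lowest, but the lowest was still well above the highest control. Atf5 rose 3.49-fold (1.80 ± 0.11; adjusted p = 8.85e-14; row Nup62), and its difference from DON was 0.09 ± 0.10 (interval -0.12 to 0.30).

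Ddit3, the stress transcription factor CHOP, had the smallest rise of the 5. It read 97.4, 78.2 and 82.0 CPM in control, 183, 209.8 and 186 CPM with DON and 173, 160.1 and 152 CPM with DON plus glutamate. Every glutamate library was below every DON library and above every control. The rise against control was 1.88-fold (log2 0.91 ± 0.13; adjusted p = 1.1e-05; row Mars), beside 1.16 ± 0.13 for DON against control. The difference from DON was -0.25 ± 0.11 (interval -0.48 to -0.02), and it did not pass over all genes (adjusted p = 0.643, range over the alternatives 0.5005 to 0.995). Cebpb, which codes for a partner of Atf4 on DNA, read 662, 644 and 629.6 CPM in control, 810.4, 824 and 821 CPM with DON and 746, 739 and 551 CPM with glutamate. The DON libraries stood above the other groups, and the control and glutamate libraries overlapped. It was at log2 0.08 ± 0.09 against control (adjusted p = 0.709) and -0.27 ± 0.09 against DON (adjusted p = 0.468), the latter being -0.14 without DON plus glutamate replicate 3 (adjusted p = 0.725). Psph, the last enzyme of serine synthesis and the seventh measured member, named outside the naming rule to complete the list, was at -0.04 ± 0.18 against control (adjusted p = 0.929; row Cct6a).

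Pck2, the mitochondrial phosphoenolpyruvate carboxykinase, drains citric acid cycle carbon towards sugar and serine synthesis and is a known Atf4 target. Its counts were few, 13, 14 and 8 in the controls and 32, 36 and 39 with DON plus glutamate, which is 13.9, 15.2 and 8.74 against 33.8, 38.2 and 48.6 CPM. The DON libraries read 34.8, 36.8 and 32.6 CPM, overlapping those with glutamate and above every control. The rise was 3.13-fold (log2 1.65 ± 0.27; adjusted p = 0.000109; row AC159002.2), with a difference from DON of 0.20 ± 0.22 and a wide interval of -0.25 to 0.65. Its promoter is shown because it was the one called starvation gene with a start site in the RefSeq table (GRCm38.p6) whose 250 upstream bases held the letters TGATGNAA on either strand, the core of the element that Atf4 and its partners bind. The match, in capitals, lies on the opposite strand, with its first base at -103 from the start site, in the window chr14:55540133-55540200 on the plus strand:

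Pck2 promoter: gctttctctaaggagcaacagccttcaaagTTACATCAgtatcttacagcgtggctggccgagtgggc

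The same letters were in 3.45% of 32851 RefSeq promoter windows, and a match describes letters, not binding. The 250 bases before the starts of Slc6a9 (3 starts), Atf5 (2 starts) and Ddit3 (1 start) held none, and Aldh1l2 is not in that table.

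Genes of tRNA charging and folate use were mixed. Of 20 aminoacyl-tRNA synthetases listed 3 were measured and 1 rose: Mars, which charges methionine, went from 191, 175 and 192 CPM in control to 454, 457 and 447 CPM with glutamate, with 428, 453 and 438 CPM for DON alone. All treated libraries were far above the controls, and those with and without glutamate overlapped. Mars rose 2.43-fold (log2 1.28 ± 0.10; adjusted p = 1.35e-11; row Ddit3), and its difference from DON was 0.04 ± 0.09 (interval -0.14 to 0.22). Aars, the alanine enzyme, was at 1.21 ± 0.39 (adjusted p = 0.0664) on 6, 7 and 5 control counts and 11, 17 and 13 counts with glutamate. Hars, the histidine enzyme, was at -0.07 ± 0.10 (adjusted p = 0.758). Of 27 serine, glycine and folate genes 7 were measured and 2 rose, Aldh1l2 and Slc6a9 themselves. Shmt1, the cytosolic serine hydroxymethyltransferase, was at 0.48 ± 0.16 (adjusted p = 0.0877). Of 29 amino acid transporters 8 were measured and Slc6a9 alone passed. Slc43a2, a carrier of large neutral amino acids, was at 0.91 ± 0.35 (adjusted p = 0.137), and Slc38a9, the lysosomal arginine sensor, was at -0.79 ± 0.32 (adjusted p = 0.156).

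Some of these genes face each other across the strands. Ddit3 and Mars overlap by 68 bp, and each one's row is the other's name, so both values rest on a short stretch. The row named Aldh1l2, read as D10Wsu102e, had 14, 16 and 12 counts in control and 22, 34 and 26 counts with glutamate, with no overlap between those groups, and rose 2.00-fold (adjusted p = 0.0265). That call ended on leaving out control replicate 1 (adjusted p = 0.0864), replicate 2 (0.0501), replicate 3 (0.113), DON plus glutamate replicate 2 (0.155) or replicate 3 (0.0704), over a range of 0.0151 to 0.155. Trim46 and Krtcap2 overlap by 239 bp. The part of reads given the wrong strand in these pairs was not tested. The starvation and glutamine genes Asns, Atf4 and Gls2 had no tested opposite-strand value, and their own rows held few counts: 0 to 4 for Asns, 1 to 9 for Atf4 and 9 to 26 for Gls2 per library.

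**Figure D2:**
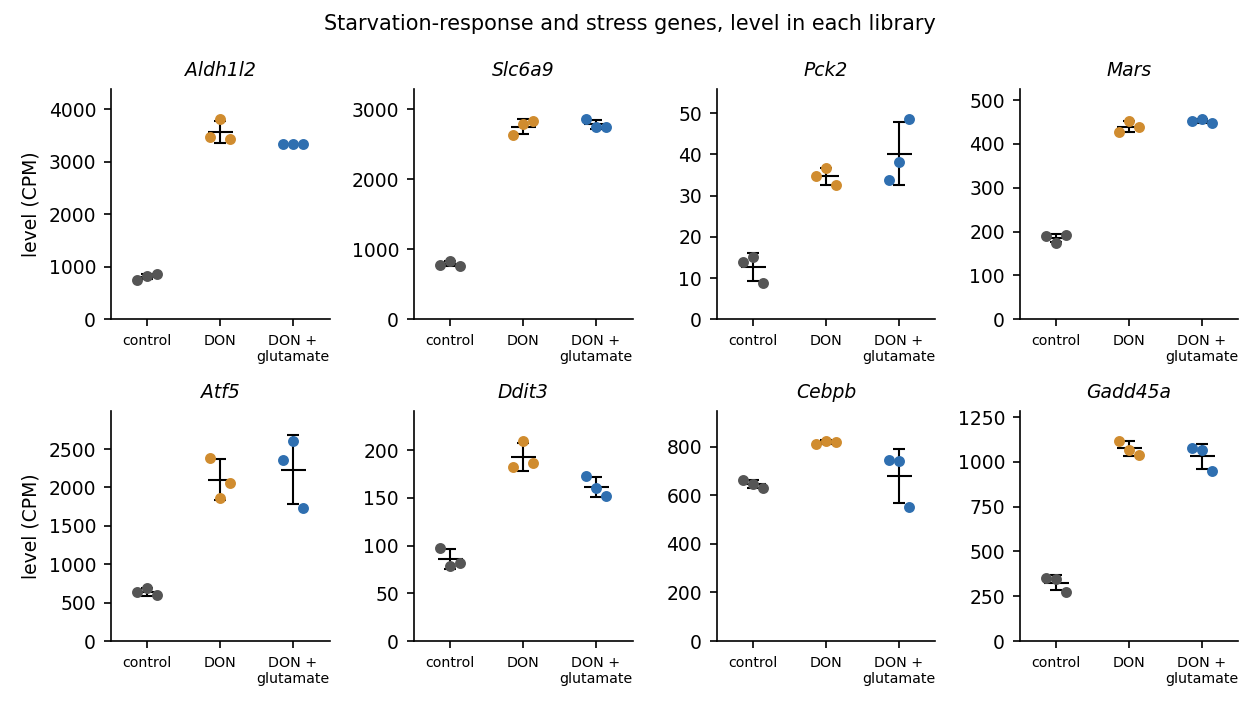
Level in CPM (vertical axes, from 0) of 8 stress genes in each of 9 libraries, grouped on the horizontal axis as control, DON and DON plus glutamate. Points are libraries, and bars are the mean ± SD of 3. In 7 of the genes both treated groups stand above the controls, and in Cebpb the glutamate libraries overlap the controls.

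Gadd45a, a growth arrest and DNA damage gene that several stress pathways induce, was the 1 of 6 measured p53 targets (26 listed) that rose. It read 351, 347 and 277 CPM in control, 1118, 1067 and 1039 CPM with DON and 1076, 1065 and 949 CPM with DON plus glutamate. The 6 treated libraries were together, far above the controls, and both treatments overlapped. It rose 3.17-fold (log2 1.67 ± 0.09; adjusted p = 6.68e-15; row E230016M11Rik), with a difference from DON of -0.06 ± 0.08 (interval -0.23 to 0.11). Other p53 targets had values of 0.43 ± 0.14 for Rrm2b, a ribonucleotide reductase subunit (adjusted p = 0.0775), and 0.18 ± 0.09 for Ddb2, a repair factor for UV lesions (adjusted p = 0.276). Rrm2b passed on leaving out DON plus glutamate replicate 1 (adjusted p = 0.0457), within a range of 0.0457 to 0.263.

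The largest fold changes of all were in genes of low level outside these lists. Maats1, also known as Cfap91 and a component of the sperm tail, had 0, 5 and 2 counts in the controls, 17, 16 and 22 with DON plus glutamate and 25.3, 18.4 and 13.7 CPM with DON. Controls were nearly empty and every treated library held more, so the fitted fold of 7.73 (log2 2.95 ± 0.52; adjusted p = 0.000288; row Maats1os) rests on few reads and was 2.39 on the log2 scale without control replicate 1 and 4.09 without control replicate 2. Angptl6, a secreted angiopoietin-like factor, went from 8.57, 17.4 and 23.0 CPM to 86.5, 123 and 83.5 CPM, with 125, 114 and 106 CPM under DON. It rose 5.99-fold (log2 2.58 ± 0.24; adjusted p = 1.66e-09; row A230050P20Rik), and its difference from DON was -0.23 ± 0.16 (interval -0.56 to 0.11). No treated library of Angptl6 came near the highest control.

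B4galnt2, a glycosyltransferase of cell surface glycans, rose 5.05-fold, from 8.57, 8.69 and 4.37 CPM to 40.1, 39.2 and 31.1 CPM (log2 2.34 ± 0.33; adjusted p = 8.53e-06; row Gm11534). Apobr, a receptor for apolipoprotein B lipoproteins, rose 4.83-fold, from 35.1 ± 4.42 CPM to 169 ± 24.8 CPM (mean ± SD, n = 3; log2 2.27 ± 0.16; adjusted p = 2.21e-12; row Cln3). For both, all treated libraries exceeded all controls, and the differences from DON were -0.21 ± 0.22 and -0.19 ± 0.12. Trim46, which bundles microtubules in axons, went from 24.6, 20.6 and 19.7 CPM to 99.1, 88.0 and 76.0 CPM (4.05-fold; log2 2.02 ± 0.21; adjusted p = 1.95e-08; row Krtcap2). Arhgef2, the exchange factor GEF-H1 that microtubules hold inactive and that activates RhoA when free, went from 214, 183 and 179 CPM to 592, 751 and 716 CPM, with 772, 679 and 652 CPM under DON. It rose 3.57-fold (log2 1.84 ± 0.11; adjusted p = 3.4e-14; row Gm20652), and its difference from DON was -0.03 ± 0.09 (interval -0.22 to 0.16).

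Rab39b, a small GTPase of vesicle traffic, rose 2.36-fold (log2 1.24 ± 0.18; adjusted p = 1.23e-05; row Gm15063), with 1.53 ± 0.17 under DON alone. Hhipl1, a relative of the Hedgehog-interacting protein, rose 2.56-fold (1.35 ± 0.30; adjusted p = 0.0051; row 4930478K11Rik), and the call ended on leaving out DON plus glutamate replicate 1 (0.0567), over a range of 0.000486 to 0.0567. C2, a complement protease, rose 2.43-fold on 4, 12 and 5 control counts and 15, 15 and 20 counts with glutamate (1.28 ± 0.39; adjusted p = 0.0493; row Zbtb12). The C2 call ended on leaving out control replicate 1 (adjusted p = 0.211), replicate 3 (0.182), DON replicate 3 (0.0617), DON plus glutamate replicate 1 (0.0619), replicate 2 (0.0772) or replicate 3 (0.196), with the replicate block (0.0671) and with only the groups compared (0.0535), over a range of 0.0148 to 0.211. Among other rises that held in every alternative, Phf10, a subunit of the PBAF chromatin remodeller, read 2195, 2196 and 2232 CPM in control and 3732, 3713 and 3775 CPM with glutamate. That is 1.69-fold (log2 0.76 ± 0.07; adjusted p = 1.47e-09; row 1600012H06Rik) with a small spread in both groups, beside 0.86 ± 0.07 for DON. Slc25a33, a carrier of pyrimidine nucleotides into mitochondria, rose 1.63-fold (0.70 ± 0.10; adjusted p = 6.69e-06; row Gm13068), and Mrpl13, a mitochondrial ribosome protein, rose 2.06-fold (1.04 ± 0.15; adjusted p = 8.53e-06; row Mtbp). Ifrd1, a transcriptional coregulator induced by stress, rose 1.59-fold (0.67 ± 0.08; adjusted p = 3.52e-07; row Gm7008). Phf10, Slc25a33, Mrpl13 and Ifrd1 stand outside the naming rule and were chosen after their values were seen.

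Cholesterol synthesis had the lowest median of the lists with at least 3 measured members. Of 25 genes listed 6 were measured, 4 fell and 0 rose, where 2.74% of all genes tested fell. The list median was -0.88 on the log2 scale against 0.00 over all genes. Hmgcs1, which makes the HMG-CoA that feeds the pathway, read 3230.3, 3166 and 3309.8 CPM in control, 1359, 1544 and 1444 CPM with DON and 1572, 1451 and 1512 CPM with DON plus glutamate. All 6 treated libraries were below every control by a wide margin, and the libraries of both treatments overlapped. It was 2.14-fold lower (log2 -1.10 ± 0.07; adjusted p = 4.62e-13; row AC123738.2), beside -1.16 ± 0.07 for DON against control, and the difference from DON was 0.06 ± 0.07 (interval -0.09 to 0.21). Hmgcs1 lies on chromosome 13 at 119690379 to 119708260, plus strand, and 557 bp of its exons face the row. Its promoter is shown because it was the one called sterol gene in the table whose 250 upstream bases held TCACNCCAC on either strand, letters of the sterol element bound by SREBP. The match is in capitals with its first base at -137, in chr13:119690184-119690252 (GRCm38.p6, plus strand):

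Hmgcs1 promoter: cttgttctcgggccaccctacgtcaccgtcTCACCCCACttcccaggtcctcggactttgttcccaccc

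These letters occurred in 1.05% of the 32851 windows. The windows of Lss and Cyp51 held none.

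Lss, lanosterol synthase, which closes the sterol rings, read 569.6, 602 and 624 CPM in control, 322, 243 and 305 CPM with DON and 309, 309 and 300.2 CPM with DON plus glutamate. The glutamate libraries were close together and below every control. Lss was 1.96-fold lower (log2 -0.97 ± 0.10; adjusted p = 1.18e-08; row 4930483K19Rik), with a difference from DON of 0.08 ± 0.10 (interval -0.13 to 0.29). Cyp51, the lanosterol demethylase, was 1.46-fold lower, at 185, 176 and 192 CPM in control and 134, 111 and 136 CPM with glutamate (-0.54 ± 0.12; adjusted p = 0.0062; row Akap9), and its call ended on leaving out DON plus glutamate replicate 2 (0.0712), over a range of 0.00137 to 0.0712.

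Idi1 and Fdft1 were also at negative values and did not pass. Idi1, which isomerises the isoprene unit, read 88.9, 103 and 87.4 CPM in control, 46.4, 43.3 and 62.1 CPM with DON and 59.1, 79.5 and 52.3 CPM with glutamate. No glutamate library reached the lowest control, and replicate 2 lay nearest to it. Idi1 was at log2 -0.54 ± 0.17 against control (adjusted p = 0.0606), beside -0.88 ± 0.18 for DON, and at 0.34 ± 0.19 against DON (interval -0.05 to 0.73). It passed on leaving out DON plus glutamate replicate 2 (adjusted p = 0.0225) and with no filter on low counts (0.0281), over a range of 0.0225 to 0.241. Fdft1, squalene synthase, also named to complete the list, was at -1.12 ± 0.35 (adjusted p = 0.0607; row Ctsb) on 17, 17 and 20 control counts and 5, 8 and 11 counts with glutamate. Of 23 fatty acid synthesis genes 2 were measured and 1 fell, Acss2, which makes acetyl-CoA from acetate and is known as an SREBP target. Acss2 went from 143, 171 and 149 CPM to 107, 89.1 and 113 CPM (log2 -0.59 ± 0.13; adjusted p = 0.00506; row Acss2os), with every treated library lower, and its call ended on leaving out control replicate 2 (0.0565) or DON plus glutamate replicate 2 (0.0615), over a range of 0.000574 to 0.0615. Srebf1, the gene of one SREBP, was at -0.65 ± 0.36 with overlapping groups (adjusted p = 0.335).

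**Figure D3:**
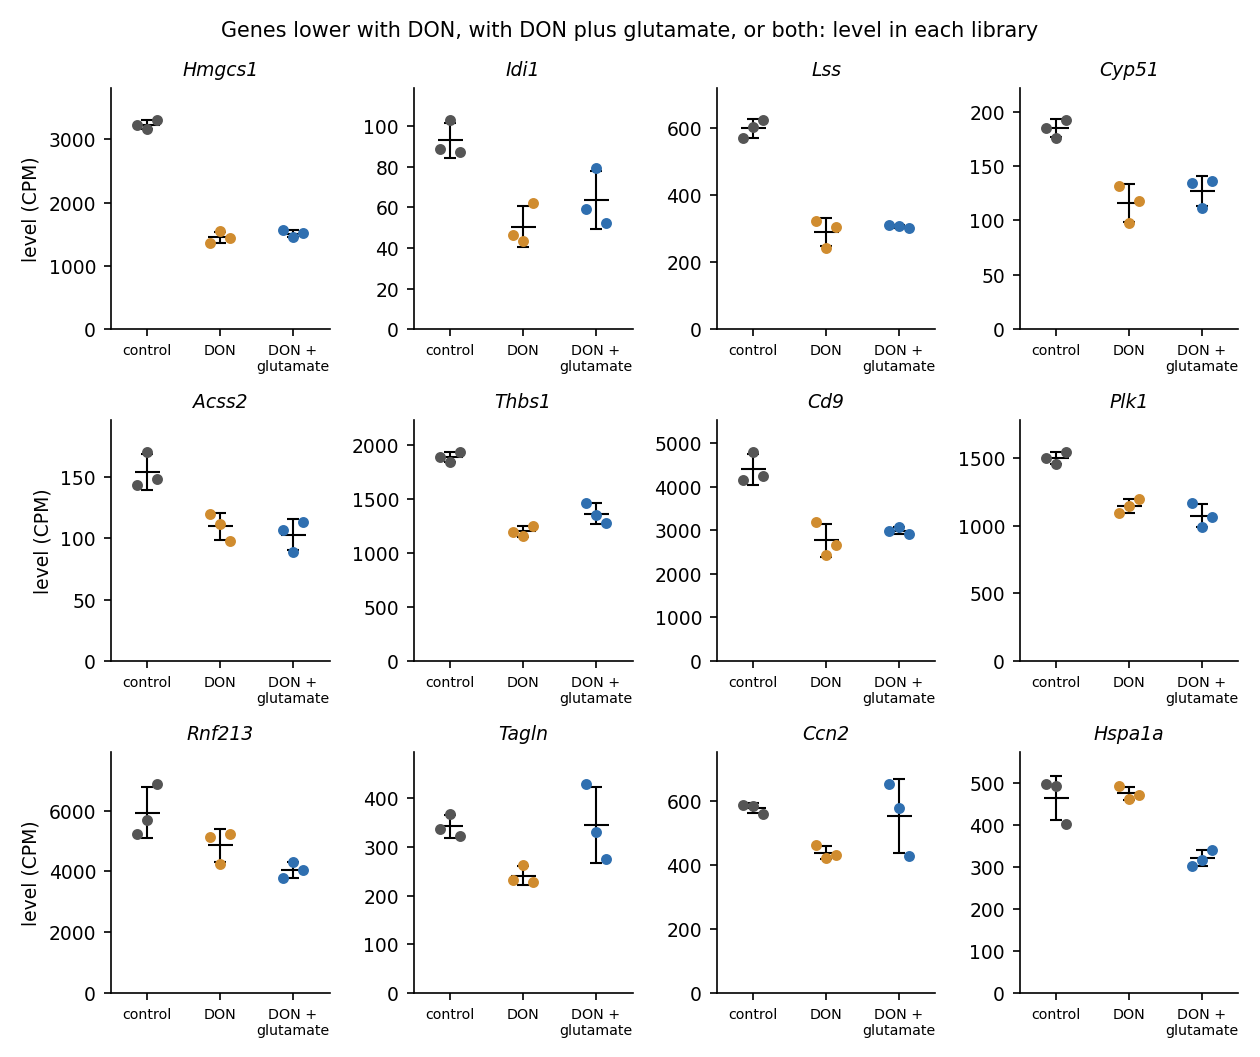
Level in CPM (vertical axes, from 0) of 12 genes in each of 9 libraries, grouped as control, DON and DON plus glutamate. Points are libraries, and bars are the mean ± SD of 3. Hmgcs1, Lss, Cyp51, Acss2, Thbs1, Cd9 and Plk1 are below control in both treated groups, Tagln and Ccn2 overlap control only with glutamate, and Hspa1a is below control only with glutamate in these libraries.

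Cd9, a tetraspanin that organises integrins, read 4146, 4794 and 4233 CPM in control, 3195, 2439.8 and 2655 CPM with DON and 2983, 3072 and 2918 CPM with DON plus glutamate. The glutamate libraries were close together and below every control. Cd9 was 1.47-fold lower (log2 -0.55 ± 0.08; adjusted p = 2.03e-05; row Gm26728), with a difference from DON of 0.11 ± 0.08 (interval -0.05 to 0.28). Thbs1, the matrix glycoprotein thrombospondin that releases TGF-beta from its latent form, was the 1 of 4 measured YAP and TGF-beta targets (22 listed) that fell. It read 1895, 1845 and 1939 CPM in control, 1192, 1157 and 1255 CPM with DON and 1468, 1351 and 1282 CPM with DON plus glutamate. The 3 groups did not overlap, and the glutamate libraries lay between the other groups. Thbs1 was 1.38-fold lower (-0.47 ± 0.07; adjusted p = 3.97e-05; row Gm29233), beside -0.66 ± 0.07 for DON. The difference from DON was 0.19 ± 0.07 (interval 0.04 to 0.34) and did not pass over all genes (adjusted p = 0.626, range over the alternatives 0.511 to 0.992).

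The other YAP and TGF-beta targets and the contractile genes did not pass against control. Ccn2, a matrix-associated growth factor induced by YAP, read 590.0, 586 and 561 CPM in control, 464, 423 and 433 CPM with DON and 655, 579 and 429.8 CPM with DON plus glutamate. Its glutamate libraries were spread from above the controls (replicate 1) to among the DON libraries (replicate 3). Ccn2 was at log2 -0.06 ± 0.10 against control (adjusted p = 0.818) and 0.34 ± 0.10 against DON (interval 0.13 to 0.55; adjusted p = 0.411). Tgfb2, a TGF-beta ligand, was at -0.31 ± 0.24 against control (adjusted p = 0.528) and 0.67 ± 0.27 against DON (adjusted p = 0.626), at levels of 27.8, 40.2 and 32.8 CPM, 17.9, 14.1 and 18.9 CPM and 25.3, 28.6 and 27.4 CPM in control, DON and DON plus glutamate. Tgfb3, another ligand, was at -0.31 ± 0.10 (adjusted p = 0.0657) and passed with an overlap of at least 200 bp (adjusted p = 0.0246) and with all rows of the gene summed (0.0142), over a range of 0.0142 to 0.211.

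Of 23 smooth muscle contractile genes 4 were measured, and 0 changed by edgeR, where 5.36% of all genes changed. The list median was -0.09. The defining markers Acta2, Myh11 and Cnn1 had no tested opposite-strand value, so the list rests on Tagln, Smtn, Vcl and 1 other gene. Tagln, the actin-binding protein transgelin, read 336, 368 and 321 CPM in control, 232, 263 and 227 CPM with DON and 429, 331 and 275 CPM with DON plus glutamate. The controls lay within the spread of the glutamate libraries, of which replicate 1 was the highest and replicate 3 the lowest, and all 3 were above every DON library. Tagln was at log2 0.02 ± 0.12 against control (adjusted p = 0.952), and 0.53 ± 0.12 against DON (interval 0.28 to 0.78) without passing (adjusted p = 0.204). Against DON it passed on leaving out DON plus glutamate replicate 3 (adjusted p = 0.00701) and with no filter on low counts (0.00138), and Ccn2 passed without that replicate (0.00969). On leaving out replicate 1 with glutamate, the difference from DON was smaller, at 0.34 for Tagln (interval 0.10 to 0.58; adjusted p = 0.4403) and 0.20 for Ccn2 (interval -0.01 to 0.42; adjusted p = 0.606). The adjusted p over the alternatives ran from 0.00138 to 0.753 for Tagln and from 0.00969 to 0.892 for Ccn2. Smtn, a cytoskeletal protein of contractile cells, was at -0.29 ± 0.09 against control (adjusted p = 0.0539) and 0.00 ± 0.09 against DON. It passed against control on leaving out DON replicate 2 (adjusted p = 0.0339) or DON plus glutamate replicate 1 (0.026), with no filter on low counts (0.0124), with only the groups compared (0.0389) and with an overlap of at least 200 bp (0.0468), over a range of 0.0124 to 0.284. Vcl, vinculin of focal adhesions, was at -0.20 ± 0.07 (adjusted p = 0.0973).

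Matrix structural genes did not pass, and with 5.36% of all genes called, 0 calls in lists this short say little. Of 36 collagen and elastic matrix genes 5 were measured and 0 changed, with Fn1, fibronectin, at -0.04 ± 0.09 (adjusted p = 0.848), Col5a1, a fibrillar collagen chain, at -0.02 ± 0.09 (adjusted p = 0.931) and Fbn1, fibrillin, at -0.29 ± 0.15 (adjusted p = 0.286). Of 21 collagen crosslinking and folding genes 6 were measured and 0 changed. Timp3, an inhibitor of matrix metalloproteases that binds the matrix, was the 1 of 7 measured proteases and inhibitors (32 listed) that rose. It read 5368, 5449.8 and 5869.8 CPM in control and 7551, 7020.5 and 7188 CPM with glutamate, with no overlap, and rose by 0.38 ± 0.07 on the log2 scale (adjusted p = 0.000517; row Syn3). Outside the lists and chosen after their values were seen, the calpain protease genes Capn2 and Capn1 fell: Capn2 (-0.34 ± 0.07; adjusted p = 0.000801; row Gm37885) and Capn1 (-0.36 ± 0.08; adjusted p = 0.00565; row Gm10814).

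Among other large falls, Rnf213, a giant ubiquitin ligase linked to arterial disease, read 5242, 5679 and 6875 CPM in control, 5122, 4243 and 5233 CPM with DON and 3789.6, 4309.6 and 4032 CPM with DON plus glutamate. All glutamate libraries were below the controls, and replicate 2 alone overlapped the DON libraries. Rnf213 was 1.47-fold lower than control (log2 -0.55 ± 0.09; adjusted p = 5.33e-05; row A930037H05Rik), beside -0.29 ± 0.09 for DON, and at -0.27 ± 0.09 against DON (interval -0.45 to -0.09; adjusted p = 0.468). Serpinb9b, an inhibitor of granzyme-like proteases, was 1.46-fold lower (-0.54 ± 0.09; adjusted p = 0.000109; row Gm36099), with a difference from DON of 0.09 ± 0.09. Fzd6, a Wnt receptor, was 2.22-fold lower, on 28, 42 and 26 counts in control and 16, 18 and 8 counts with glutamate (-1.15 ± 0.29; adjusted p = 0.0145; row Gm26704). The Fzd6 call ended on leaving out control replicate 2 (adjusted p = 0.135) or DON plus glutamate replicate 3 (0.0814), over a range of 0.00202 to 0.135. Btd, which recycles biotin, was 1.62-fold lower (-0.69 ± 0.15; adjusted p = 0.00301; row Hacl1), and the call ended on leaving out DON plus glutamate replicate 2 (0.0508), over a range of 0.000173 to 0.0508. Gpsm2, which orients the mitotic spindle, was lower (log2 -0.59 ± 0.14; adjusted p = 0.00752; row Clcc1) beside -0.21 ± 0.13 for DON, and its call ended on leaving out control replicate 3 (0.0571) or DON plus glutamate replicate 2 (0.052), over a range of 0.00481 to 0.0571.

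The rest of the 15 largest falls depended on more libraries. Ampd3, an AMP deaminase, was at -0.69 ± 0.17 (adjusted p = 0.0133; row Rnf141), and the call ended on leaving out control replicate 3 (0.134), DON plus glutamate replicate 1 (0.0711) or replicate 3 (0.0615), over a range of 0.00223 to 0.134. Wdr37, a WD-repeat protein, was at -0.63 ± 0.17 (adjusted p = 0.0238; row AC124732.3), and the call ended on leaving out control replicate 1 (0.251), DON plus glutamate replicate 1 (0.126) or replicate 2 (0.0795), over a range of 0.00108 to 0.251. Tcim, a small regulator of Wnt signalling, was at -0.81 ± 0.22 (adjusted p = 0.0265; row Gm26714), and the call ended on leaving out control replicate 2 (0.104), replicate 3 (0.0781), DON plus glutamate replicate 1 (0.115), replicate 2 (0.0617) or replicate 3 (0.0569), over a range of 0.0168 to 0.115. These genes had low counts, and in all of them the control libraries lay above those with glutamate. Atp5l, a subunit of ATP synthase, was at -0.63 ± 0.17 (adjusted p = 0.0241; row Gm30934), and the call ended on leaving out control replicate 1 (0.148), replicate 3 (0.0543), DON plus glutamate replicate 1 (0.093) or replicate 3 (0.105) and by the DESeq2 Wald test (0.0644), over a range of 0.00926 to 0.148. Vwa1, a matrix protein, was at -0.58 ± 0.16 (adjusted p = 0.0271; row Gm26840), and the call ended on leaving out control replicate 1 (0.137), replicate 2 (0.0673), DON plus glutamate replicate 1 (0.111) or replicate 2 (0.114) and by the DESeq2 Wald test (0.0789), over a range of 0.015 to 0.137.

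Some mitotic genes fell by small amounts. Of 40 G2 and mitosis genes 11 were measured, 5 fell and 0 rose, where 2.74% of all genes tested fell. The list median was -0.32 against 0.00 over all genes. Plk1, the kinase that drives entry into and passage through mitosis, read 1501, 1458 and 1548 CPM in control, 1094, 1149 and 1199 CPM with DON and 1167, 993 and 1068 CPM with DON plus glutamate. Every treated library was below every control, and the treated groups overlapped. Plk1 was 1.40-fold lower (log2 -0.48 ± 0.08; adjusted p = 4.49e-05; row Gm44985), with a difference from DON of -0.09 ± 0.08 (interval -0.25 to 0.06). Prc1, which bundles microtubules of the central spindle, was 1.29-fold lower, at 4569.7, 4442 and 4756 CPM in control and 3676, 3648 and 3371 CPM with glutamate (-0.36 ± 0.07; adjusted p = 0.00105; row Rccd1).

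The other 3 mitotic calls were smaller and did not hold throughout. Kif20a, a kinesin of cytokinesis, was at -0.28 ± 0.07 (adjusted p = 0.0208; row Cdc23), and the call ended on leaving out control replicate 2 (0.0675), replicate 3 (0.162), DON plus glutamate replicate 2 (0.0899) or replicate 3 (0.099), over a range of 0.00316 to 0.162. Cdc25b, a phosphatase that activates mitotic kinases, was at -0.32 ± 0.09 (adjusted p = 0.0215; row Spef1), and the call ended on leaving out control replicate 1 (0.092), replicate 2 (0.104) or DON plus glutamate replicate 2 (0.139), over a range of 0.0128 to 0.139. Ccna2, cyclin A, was at -0.28 ± 0.08 (adjusted p = 0.0221; row Exosc9), and the call ended on leaving out control replicate 1 (0.0536), replicate 2 (0.0625), replicate 3 (0.127) or DON plus glutamate replicate 2 (0.139), over a range of 0.00288 to 0.139. DNA replication genes did not pass: of 45 listed 12 were measured and 0 changed, with a median of -0.01 and a range of -0.30 to 0.14. With 5.36% of all genes called, 0 of 12 is near the share over all genes. Mcm7, a helicase subunit, was at 0.11 ± 0.11 (adjusted p = 0.644), and Pole, a replicative polymerase, was at 0.13 ± 0.08 (adjusted p = 0.348). The difference between the lists was not tested.

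**Figure D4:**
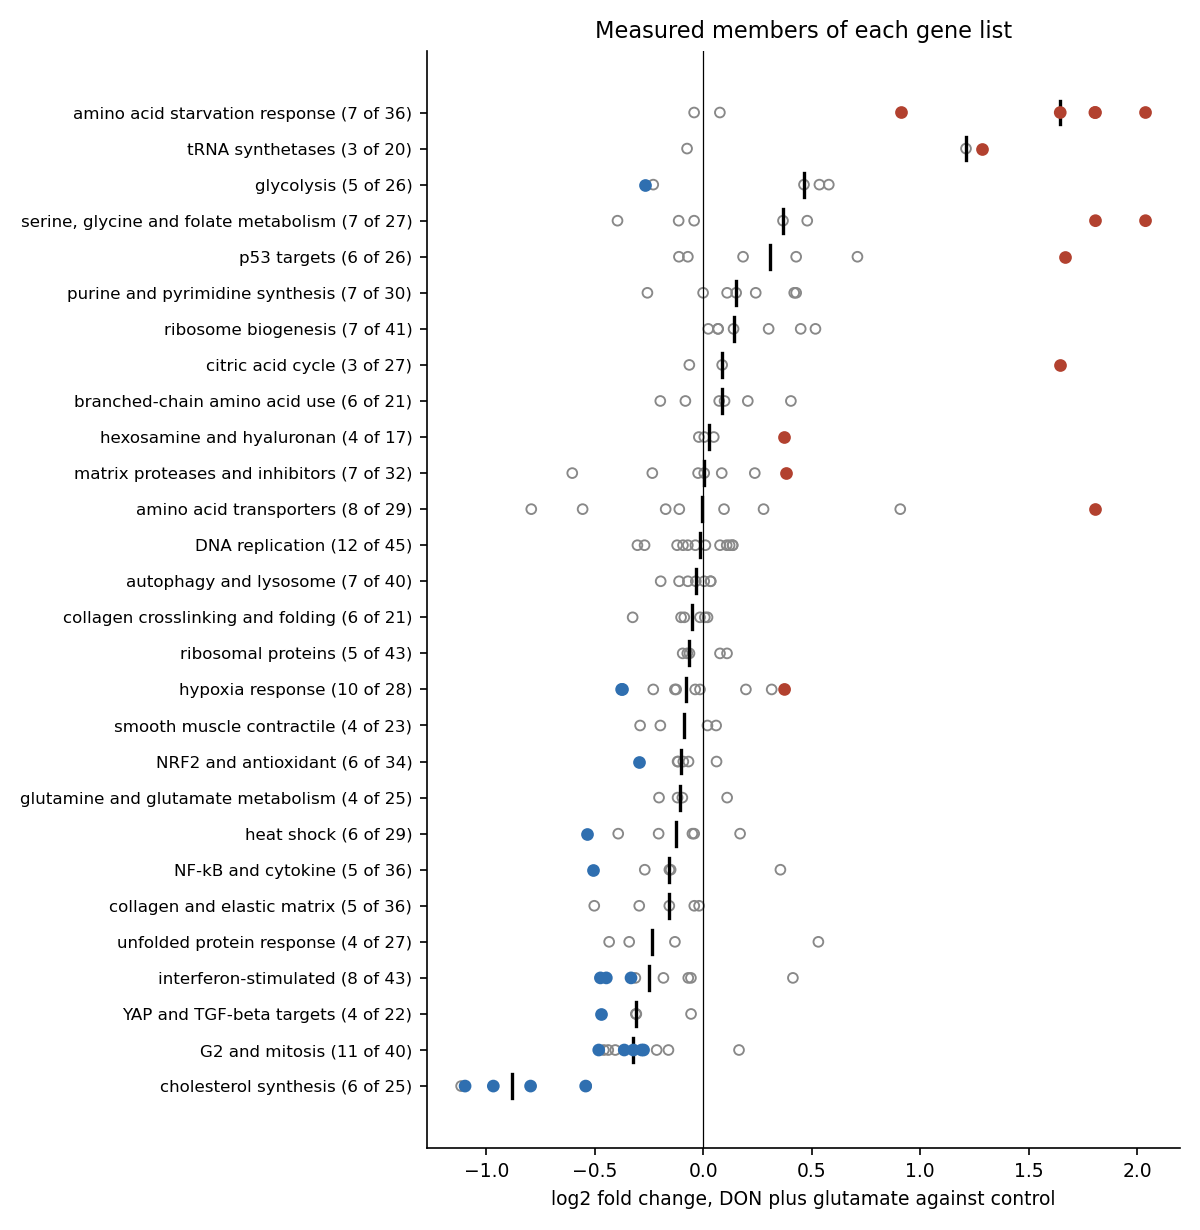
Log2 fold change of DON plus glutamate against control (horizontal axis) for the measured members of each gene list with at least 3 of them (rows; measured and listed members in brackets). Filled points passed at adjusted p under 0.05, red higher and blue lower, open points did not, and black bars are list medians. The starvation response lies at the right, with a median of 1.65, and cholesterol synthesis at the left, with a median of -0.88.

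Interferon and cytokine genes were lower in part. Of 43 interferon-stimulated genes 8 were measured, 3 fell and 0 rose, where 2.74% of all genes tested fell. The list median was -0.25, within a range of -0.47 to 0.41. Dhx58, a sensor of viral RNA, read 812, 755 and 754 CPM in control, 543, 563 and 595 CPM with DON and 467, 589 and 618 CPM with DON plus glutamate, so both treated groups lay below control. It was 1.39-fold lower (log2 -0.47 ± 0.09; adjusted p = 0.000666; row Dhx58os), with a difference from DON of -0.03 ± 0.09. Usp18, the protease that removes ISG15, was at -0.33 ± 0.08 (adjusted p = 0.00762; row Gm44148), and the call ended on leaving out DON plus glutamate replicate 1 (0.0834), over a range of 0.00207 to 0.0834. Parp9, which acts with Dtx3l in the interferon response, was at -0.45 ± 0.13 (adjusted p = 0.0317; row Dtx3l), and the call ended on leaving out control replicate 2 (0.161), replicate 3 (0.127), DON plus glutamate replicate 1 (0.14) or replicate 3 (0.0791), with library totals (0.0572), by the DESeq2 Wald test (0.0644) and with the replicate block (0.0576), over a range of 0.0129 to 0.161. Dtx3l itself was at -0.31 ± 0.13 (adjusted p = 0.157). Of 36 NF-kB and cytokine genes 5 were measured and 1 fell, the chemokine Cxcl10, at -0.51 ± 0.15 (adjusted p = 0.039; row Art3). The Cxcl10 call ended on leaving out control replicate 1 (0.0716), replicate 2 (0.151), replicate 3 (0.111), DON plus glutamate replicate 2 (0.229) or replicate 3 (0.0934), with library totals (0.0574), by the DESeq2 Wald test (0.093) and with the replicate block (0.0671), over a range of 0.0194 to 0.229. Vcam1, a leukocyte adhesion molecule, was at -0.16 ± 0.07 with overlapping groups (adjusted p = 0.239). Tnfaip2, of the same list, went the other way without passing, at log2 0.23 to 0.45 on leaving out 1 library. It passed without DON replicate 2 (adjusted p = 0.048) and with no filter on low counts (0.0449), over a range of 0.0449 to 0.379.

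Hspa1a, the inducible Hsp70 chaperone, was the one gene that differed from both control and DON. It read 497, 491 and 402 CPM in control, 492, 461 and 470.4 CPM with DON and 303, 317 and 340.1 CPM with DON plus glutamate. The glutamate libraries were below all 6 others, and the control and DON libraries overlapped. Hspa1a was 1.45-fold lower than control (log2 -0.54 ± 0.10; adjusted p = 0.000366; row Gm20481), a call that held in every alternative (6.35e-06 to 0.00864). Against DON it was 1.48-fold lower (-0.57 ± 0.10, interval -0.77 to -0.37; adjusted p = 0.00452), and that call ended on leaving out DON plus glutamate replicate 1 (0.0616) or replicate 2 (0.0641), over a range of 3.6e-05 to 0.0641. It was the 1 of 6 measured heat shock genes (29 listed) that changed against control. Hspa1l, its testis-enriched neighbour, was at -0.39 ± 0.21 (adjusted p = 0.324), and the list ran from -0.54 to 0.17. Hsp90b1, a chaperone of the endoplasmic reticulum counted in the unfolded protein response list, was at -0.13 ± 0.07 (adjusted p = 0.312). Hspa1a has a near-identical neighbour in Hspa1b, so its value may include reads of either copy. The next smallest p-values against DON, beside Tagln, belonged to Evl, an actin regulator (-0.49 ± 0.12; adjusted p = 0.347), and Arhgef12, a RhoA exchange factor (-0.28 ± 0.07; adjusted p = 0.355), both lower with glutamate without passing. Evl read 339, 301 and 349 CPM in control, 407, 400.2 and 388 CPM with DON and 198, 322 and 331 CPM with DON plus glutamate, so that replicate 1 with glutamate stood apart as the lowest library. Leaving out that replicate moved the difference of Evl from DON to -0.29 (adjusted p = 0.446). Evl passed with no filter on low counts (0.00168), over a range of 0.00168 to 0.753.

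Prdx2, a peroxiredoxin that removes hydrogen peroxide, showed a partial pattern. It read 1925, 2421 and 2211 CPM in control, 1610.3, 1399 and 1367 CPM with DON and 1683, 1801 and 1851 CPM with DON plus glutamate. The glutamate libraries lay between the other groups without overlapping either. Prdx2 was 1.23-fold lower than control (log2 -0.30 ± 0.08; adjusted p = 0.0251; row Rnaseh2a), beside -0.58 ± 0.08 for DON, and at 0.29 ± 0.08 against DON (adjusted p = 0.357). The call against control ended on leaving out control replicate 2 (adjusted p = 0.239), replicate 3 (0.108), DON plus glutamate replicate 1 (0.115) or replicate 2 (0.0761), with library totals (0.0572) and with the replicate block (0.0547), over a range of 0.00343 to 0.239. It was the 1 of 6 measured NRF2 and antioxidant genes (34 listed) that changed.

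**Figure D5:**
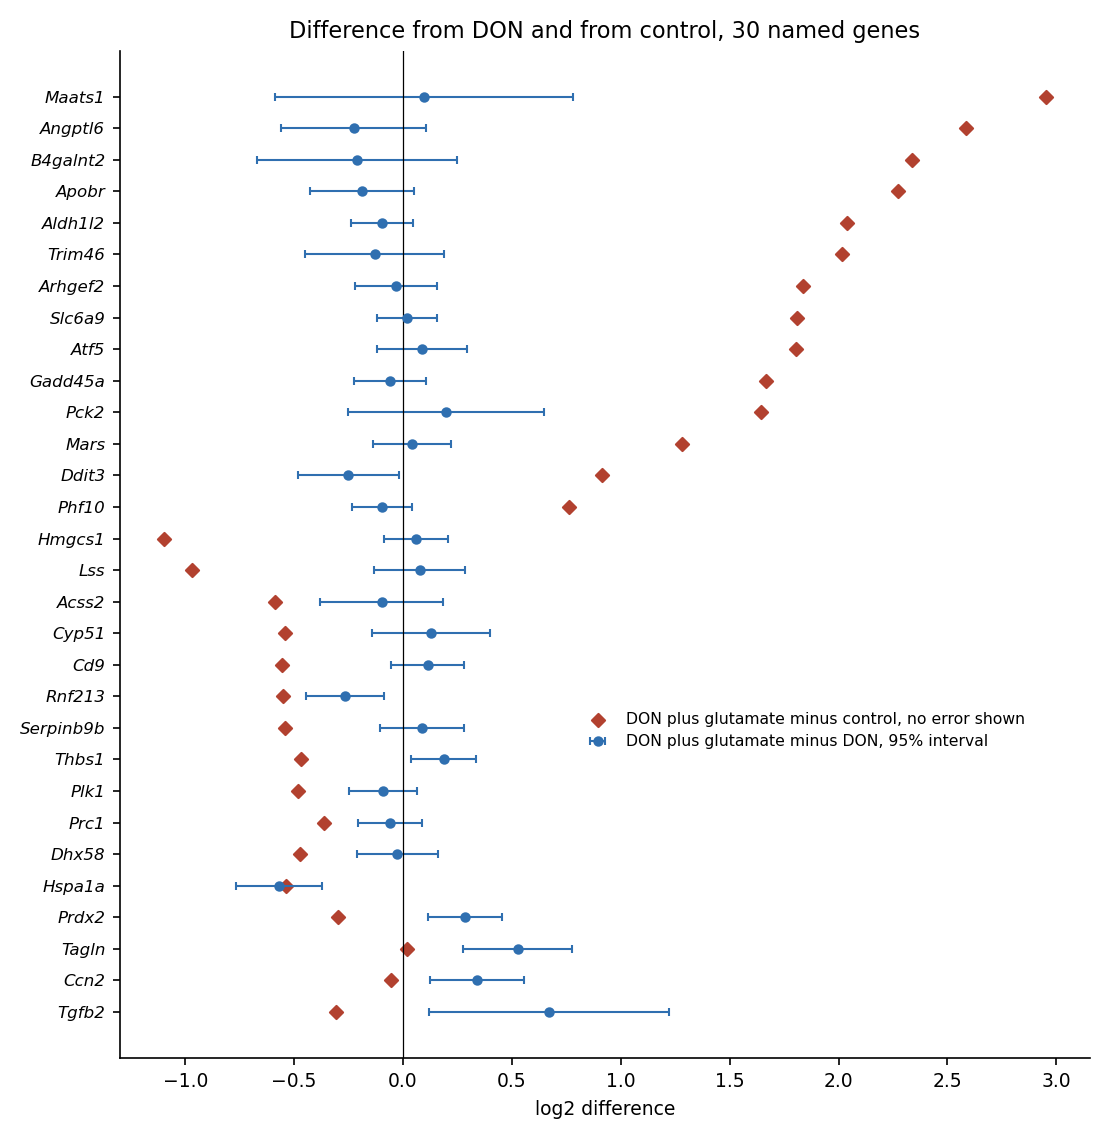
Log2 difference of DON plus glutamate from DON (blue circles, with 95% intervals) and from control (red diamonds) for 30 named genes. The blue intervals of Hmgcs1, Mars and Gadd45a include 0, Hspa1a lies at -0.57 from DON and -0.54 from control, and Tagln lies at 0.53 from DON and 0.02 from control.

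Genes of glutamine use did not pass, by the same test, and with 5.36% of all genes called, 0 calls among so few genes say little. Of 25 glutamine and glutamate genes 4 were measured and 0 changed. Glul, glutamine synthetase, read 156, 171 and 180.4 CPM in control, 85.5, 120.0 and 138 CPM with DON and 118, 169.6 and 153 CPM with DON plus glutamate. Replicates 1 and 3 with glutamate were below every control, and replicate 2 fell among the controls. Glul was at log2 -0.20 ± 0.14 against control (adjusted p = 0.469) and 0.36 ± 0.15 against DON (interval 0.05 to 0.67; adjusted p = 0.633). Its difference from DON was 0.23 on leaving out DON plus glutamate replicate 2 (adjusted p = 0.966) and 0.19 on leaving out DON replicate 1 (adjusted p = 0.748). Ppat, the amidotransferase that starts purine synthesis and a DON target, was at 0.11 ± 0.23 (adjusted p = 0.844), the 1 of 11 listed amidotransferases measured. Of 30 purine and pyrimidine genes 7 were measured and 0 changed, with Paics, a later purine enzyme, at 0.42 ± 0.13 (adjusted p = 0.0581) and passing on leaving out control replicate 2 (adjusted p = 0.0387), DON replicate 1 (0.0493) or replicate 2 (0.0473), with library totals (0.0387), with no filter on low counts (0.0449) and with only the groups compared (0.0473), over a range of 0.0387 to 0.195. Of 17 hexosamine and hyaluronan genes 4 were measured and 1 rose, Gnpnat1, which acetylates glucosamine phosphate. It read 670.3, 697 and 674 CPM in control and 864, 904 and 873 CPM with glutamate, 1.29-fold higher (log2 0.37 ± 0.08; adjusted p = 0.00185; row Styx), with a difference from DON of -0.04 ± 0.07. Of 21 branched-chain amino acid genes 6 were measured and 0 changed, and Bcat2, the mitochondrial transaminase, was at -0.08 ± 0.11 against control (adjusted p = 0.758) and 0.44 ± 0.12 against DON (adjusted p = 0.355).

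Energy metabolism and the remaining stress lists were read from few measured genes each, and 5.36% of all 2444 genes were called. Of 26 glycolysis genes 5 were measured and 1 fell, Gpi1, phosphoglucose isomerase, at -0.27 ± 0.07 (adjusted p = 0.0185; row Gm26762), while the list median was 0.46. That median rests on Pfkp, Hk1 and Gapdh, which did not pass. On leaving out 1 library, their log2 values ran from 0.21 to 0.77, 0.20 to 0.82 and 0.15 to 0.65 in that order. Slc2a1, also not called, ran from -0.30 to -0.18. The Gpi1 call ended on leaving out control replicate 1 (0.101), replicate 3 (0.0686) or DON plus glutamate replicate 1 (0.129), over a range of 0.00345 to 0.129. Of 27 citric acid cycle genes 3 were measured and Pck2 alone passed. Of 28 hypoxia genes 10 were measured, 1 rose and 2 fell. The rise was Ndrg1, a stress and differentiation gene, from 823, 895 and 794 CPM to 1105, 1077 and 1075 CPM (log2 0.37 ± 0.07; adjusted p = 0.00112; row Gm17035), beside 0.53 ± 0.07 for DON. The falls were Bnip3, a mitophagy receptor (-0.38 ± 0.09; adjusted p = 0.00563; row Gm45507), whose call ended on leaving out control replicate 3 (0.0571) over a range of 0.00272 to 0.0571, and Bhlhe40, a repressor of the clock family (-0.37 ± 0.11; adjusted p = 0.0493; row 0610040F04Rik). The Bhlhe40 call ended on leaving out control replicate 2 (0.204), replicate 3 (0.229), DON replicate 3 (0.0663), DON plus glutamate replicate 1 (0.0825) or replicate 3 (0.239), with DESeq2 size factors (0.0511), with library totals (0.0837), by the DESeq2 Wald test (0.061) and with the replicate block (0.0903), over a range of 0.0101 to 0.239. None passed by edgeR among 4 measured of 27 unfolded protein response genes, 7 of 41 ribosome biogenesis genes, 5 of 43 ribosomal proteins and 7 of 40 autophagy and lysosome genes. Eif2ak3, the kinase PERK, was at -0.34 ± 0.11 (adjusted p = 0.0647). Nop14, a ribosome assembly factor, was at 0.30 ± 0.10 (adjusted p = 0.066) and passed on leaving out DON replicate 1 (adjusted p = 0.0433) or replicate 2 (0.0119), with library totals (0.0366), with no filter on low counts (0.0235) and with only the groups compared (0.0176), over a range of 0.0119 to 0.221.

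Markers of other cell types were nearly absent from the readable genes. None of 12 leukocyte and 10 epithelial markers was measured, and 1 each of 12 endothelial, 10 fibroblast and 12 chondrocyte and osteoblast markers was. Nos3 (endothelial) read 8.57, 15.2 and 17.5 CPM in control and 11.6, 8.48 and 16.2 CPM with glutamate, Pdgfra (fibroblast) 23.6, 19.6 and 21.9 and 10.5, 4.24 and 14.9 CPM, and Runx2 (osteoblast) 27.8, 23.9 and 23.0 and 24.3, 24.4 and 13.7 CPM. Pdgfra was lower in every glutamate library without passing (log2 -1.15 ± 0.38; adjusted p = 0.0742), and it passed on leaving out DON plus glutamate replicate 3 (adjusted p = 0.0408) and with no filter on low counts (0.0296), over a range of 0.0296 to 0.334. The part of other cells in the results was not tested. Over the 15 lists with measured members and 0 calls by edgeR, markers included, 8 of 69 genes (11.6%) had an unadjusted p under 0.05. Over all 2444 genes it was 462 (18.9%). The lists were picked for 0 calls in the same test, which by itself lowers their share, so nothing follows from the gap. The DESeq2 Wald test called 0 of the 69.

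Under their own names, 153 of 4731 rows changed against control (3.23%), 67 higher and 86 lower, and with library totals the split was 104 higher and 50 lower. The count was 88 without DON plus glutamate replicate 2 and 99 without control replicate 2. Of the 153, 25 have no protein-coding gene on the opposite strand. Counts lay mostly opposite the named gene, so such a row may not read the RNA of its own name. Which RNA these rows read was not tested, and the names below are those of rows. The row of Eif3c, a subunit of an initiation factor, went from 19.3, 26.7 and 25.8 CPM in control to 91.9, 82.6 and 69.8 CPM with glutamate, with 86.8, 109.8 and 79.6 CPM under DON. All treated libraries were well above the controls, and the row was 3.41-fold higher (log2 1.77 ± 0.18; adjusted p = 2.57e-07), a call that held in every alternative (1.12e-18 to 1.12e-05). The row of Yipf3, a Golgi protein, rose 2.21-fold (1.14 ± 0.23; adjusted p = 0.00303), and that of the long noncoding RNA Bvht (Braveheart) rose 1.52-fold, from 134, 130.4 and 121 CPM to 212, 185 and 189.9 CPM (0.61 ± 0.12; adjusted p = 0.00394). Both calls held in every alternative.

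Other rows of this kind were weaker, and here too a name is that of the row, not of an RNA shown to have changed. Slc30a7, a zinc carrier, was at 1.09 ± 0.27 (adjusted p = 0.0245), a call that ended on leaving out control replicate 1 (0.136), replicate 2 (0.0598) or DON plus glutamate replicate 3 (0.112) over a range of 0.0177 to 0.136. Cd46, a complement regulator, was at 1.01 ± 0.26 (adjusted p = 0.032), a call that ended on leaving out control replicate 2 (0.119), replicate 3 (0.11), DON plus glutamate replicate 1 (0.191) or replicate 2 (0.103) over a range of 0.0132 to 0.191. Among falls, Trim15, a ubiquitin ligase, was at -1.30 ± 0.33 (adjusted p = 0.0276), a call that ended on leaving out control replicate 1 (0.083), replicate 2 (0.144), DON plus glutamate replicate 2 (0.14) or replicate 3 (0.112) over a range of 0.0157 to 0.144. Those 3 rows held few counts. Ifi27, an interferon-induced gene, was at -0.88 ± 0.22 (adjusted p = 0.0273), a call that ended on leaving out control replicate 1 (0.0809), replicate 2 (0.082), DON plus glutamate replicate 1 (0.125) or replicate 3 (0.0807) over a range of 0.017 to 0.125. Olfr77, an olfactory receptor locus, was at -0.57 ± 0.15 (adjusted p = 0.0288), a call that ended on leaving out control replicate 1 (0.102), replicate 3 (0.108), DON plus glutamate replicate 1 (0.121) or replicate 2 (0.14) and with library totals (0.0578) over a range of 0.0168 to 0.14. Gadl1, a decarboxylase, was at -0.26 ± 0.07 (adjusted p = 0.0266), a call that ended on leaving out control replicate 1 (0.0809), replicate 2 (0.154), DON plus glutamate replicate 2 (0.118) or replicate 3 (0.0637), with library totals (0.0793) and with no filter on low counts (0.138) over a range of 0.00301 to 0.154.

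Against DON alone 7 of 4731 rows changed (0.148%), with 318 at an unadjusted p under 0.05. The 5 higher rows were mitochondrial: mt-Nd1, mt-Nd2, mt-Cytb and the transfer RNA rows mt-Tt and mt-Ti. The mitochondrial genome has genes on both strands, so rows here may read the facing transcript, and they were not assigned. The row mt-Nd2 read 430.0, 506 and 392 CPM in control, 260.4, 309 and 385 CPM with DON and 493, 595 and 561 CPM with DON plus glutamate. The glutamate libraries were above every DON library and overlapped the controls. It was at log2 0.79 ± 0.12 against DON (adjusted p = 0.00202), a call that held in every alternative, and 0.31 ± 0.11 against control (adjusted p = 0.147). The row mt-Cytb read 301, 266 and 227 CPM in control, 198, 221 and 168 CPM with DON and 274, 713 and 336 CPM with glutamate, so that DON plus glutamate replicate 2 stood far above the others. Its difference from DON was 1.18 ± 0.22 (adjusted p = 0.0154). Of 24 mitochondrial rows tested, 19 had a positive difference from DON and 19 had a positive difference from control. Against control 0 passed by edgeR (9 at an unadjusted p under 0.05, and 0 by the DESeq2 Wald test, with a smallest adjusted p of 0.0510 and log2 -0.39 to 0.74). Over all 4731 rows the median log2 difference from control was -0.0004, and the shares that match these counts are not given. The mitochondrial rows come from the same genome and are not independent, so nothing follows from the counts.

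The 4 other mitochondrial calls against DON were less stable than mt-Nd2. All 4 ended on leaving out DON plus glutamate replicate 2, at adjusted p = 0.0769 for mt-Cytb, 0.357 for mt-Nd1, 0.302 for mt-Ti and 0.0684 for mt-Tt. They also ended without DON replicate 3 (0.176, 0.2996, 0.236 and 0.0673 in that order) and by the DESeq2 Wald test (0.8796, 0.8903, 0.0669 and 0.189). With only the groups compared the calls of mt-Cytb (0.0512), mt-Nd1 (0.0648) and mt-Ti (0.0582) ended, and that of mt-Ti also without DON plus glutamate replicate 1 (0.0660) or DON replicate 1 (0.0515). The highest adjusted p over the alternatives was 0.8796 for mt-Cytb, 0.8903 for mt-Nd1, 0.302 for mt-Ti and 0.189 for mt-Tt. The 2 lower rows were Gm20481, which is the row read as Hspa1a, and H2-T24, named after a class I gene of the major histocompatibility complex. The H2-T24 row faces no exon, and whether it reads the RNA of that gene was not tested. The H2-T24 row was at -0.67 ± 0.13 against DON (adjusted p = 0.0258), with 60.9, 65.2 and 69.5 CPM in control, 86.8, 95.9 and 84.9 CPM with DON and 58.0, 50.6 and 60.1 CPM with glutamate. The glutamate libraries were below every control and every DON library. The H2-T24 call ended in 8 of 15 alternatives, namely without DON plus glutamate replicate 1 (0.0866) or replicate 2 (0.302), without DON replicate 1 (0.0861), replicate 2 (0.145) or replicate 3 (0.138), by the DESeq2 Wald test (0.234), with the replicate block (0.0787) and with only the groups compared (0.0591). As a row, Gm20481 lost its call without DON plus glutamate replicate 2 (0.0684) or DON replicate 3 (0.0673).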

How the data were processed

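Per the submitters' processing notes, STAR and HTSeq were used with mm10, and versions and the strand setting are not given in the sources used here. The authors deposited raw counts per gene for RNeasy column RNA sequenced on a BGI DNBseq platform, 9 libraries, 3 per group. Rows were placed with GENCODE M21 (GRCm38), which matched 53274 of 53379. A row was read as a protein-coding gene where its exons face those of that gene alone across the strands (minimum 50 bp), and the row of highest mean count stood for it (4598 rows, 4115 genes).

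The model was edgeR's quasi-likelihood fit (edgeR 4.0.16, R 4.3.3; low-count filter by filterByExpr, TMM scaling, then glmQLFit and glmQLFTest; 3 groups in 1 fit, 6 residual degrees of freedom, biological CV 6.78%), two-sided, with Benjamini-Hochberg adjustment over all features tested. The ± of a log2 value is its standard error, and intervals are 95%. The code was tested on simulated data. DESeq2 1.42.0 gave alternatives. Tested gene counts were 790415 to 948190 per library, which sets the counting precision.

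Named genes were the 15 largest called rises and falls (at least 5 CPM, groups not overlapping, predicted models left out), in each list the members of smallest p (up to 5), a fixed set, the 4 smallest p against DON and the 5 largest rises and falls of rows with no coding gene opposite. The members and lists were chosen with earlier results of these data known. A few measured genes are not reported here, though counts and medians include them.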

Additional observations from a re-analysis of the deposited data

How the results depend on the processing

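The counts of genes changed against control ran from 73 to 154 when 1 library was left out, and those of rows from 88 to 178. Against DON the gene count ran from 0 to 3 when 1 library was left out (2 without DON replicate 2), and it was 4 with no filter on low counts. With the replicate block, the counts were 109 genes and 117 rows against control and 1 gene against DON, and all 109 genes were among the 131. Deviations of control and DON plus glutamate libraries correlated weakly whether or not they shared a replicate number. The correlations were 0.02 to 0.07 for the same number and -0.08 to 0.04 for different numbers. No called gene changed sign under any alternative, 50 of the 131 passed in every alternative that gave a value and 81 did not, and the cause was not tested. Replicates of a group differed by more than counting noise (chi-square per degree of freedom 2.14 to 3.48). The number of libraries, the depth of 1132822 to 1342286 counts per library and the short overlaps (42 of the 131 genes under 200 bp) limit the precision. An overlap of at least 200 bp left 94 genes called.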
